A study of Punica granatum with 4 samples.

Results

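This comparison sets the leaf transcriptome of drought-stressed pomegranate (Punica granatum) sprayed with 60 µM abscisic acid (ABA) against that of drought-stressed plants sprayed with water. Its members are the 19011 of 27893 counted features that reached at least 1 CPM (a count scaled to a fixed library total) in either of the 2 libraries. Of these, 18081 reached 1 CPM in both libraries, 466 only at 60 µM and 464 only in water. The features left out held 0.0918% of the water counts and 0.0859% of the 60 µM counts. At the limit, LOC116197928 was kept with 15 counts in water and 29 at 60 µM (1.02 CPM), and LOC116193669 was left out with 22 counts (0.995 CPM) and 12.

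Both groups were wild type (labelled wt) plants of the strain Hongmanao, given as 180 days old, and both were under drought, so well-watered plants are not part of the comparison. Per the labels' protocols, rooted cuttings had grown for 90 days before soil water was held at 30% to 35% of field capacity, and each plant then received 5 mL of spray a day, either distilled water (0 µM ABA) or 60 µM ABA. The series holds 4 libraries, 1 each at 0, 30, 60 and 90 µM ABA. With 1 library at each dose, and the number of plants in a library not stated in the labels, the differences below describe these 2 libraries and have no replicate check.

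ABA is the hormone that plants make as their tissue dries. Its receptors, once they bind it, block a class of protein phosphatases, which frees protein kinases that close stomata and switch on transcription factors of ABA-responsive genes. In leaves of many plants it is known for raising genes of protective proteins and for lowering genes of growth and photosynthesis. The identifiers of this table carry no product descriptions in the sources used here, so no function is given to any gene below, and the labelled leaf tissue was not checked against leaf markers. Genes are therefore ordered by how many reads they had. Counts are not divided by transcript length, so a longer transcript has more reads at the same number of molecules, and levels are compared between libraries and not between genes.

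The water library held 22118468 counts and the 60 µM library 28366719. A level of 1 CPM was thus 22.1 counts in water and 28.4 at 60 µM. Ratios below are of counts scaled by library size with edgeR's TMM factors (1.01 for water and 0.989 for 60 µM). Each ratio has an exact 95% conditional binomial (Clopper-Pearson) interval that covers counting error only, not the spread between plants. A gene was called higher or lower when that interval lay entirely above 2-fold or entirely below 0.5. The rule concerns size and is not a test. In leaf tissue as a whole, fewer cells of a type and less RNA per cell cannot be told apart.

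Most genes had similar levels in the 2 libraries. The median log2 fold (60 µM over water, prior count 2) was 0.00, and the median size of change in either direction was 1.20-fold. TMM scaling places the bulk of genes near a ratio of 1, so a change in total RNA could not show in this median. Scaled by column totals it was -0.0286. The middle 95% of genes lay between -1.40 and 1.57 on the log2 scale. The scaled ratio was within 1.5-fold for 74.7% of genes and within 2-fold for 88.2%. For 15075 genes (79.3%) the whole counting interval lay inside 2-fold. The interval held a ratio of 1 for 37.8% of genes, lay above 1 for 5878 and below 1 for 5953, so most differences that exceeded counting error were small.

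By the 2-fold rule, 688 genes were higher at 60 µM (3.62% of 19011) and 551 were lower (2.90%), or 6.52% together. The called-higher genes had a median ratio of 3.60, with quartiles of 2.68 and 6.33, and the called-lower genes were 3.25-fold lower at the median, with quartiles of 2.58 and 4.92. The upper tail was the longer one. Intervals lay wholly above 4-fold for 189 genes and wholly below a 4-fold reduction for 97, while for 8-fold the numbers were 84 and 23 and for 16-fold 39 and 9. Genes kept through 1 library alone had to differ, and they gave 166 of the calls for higher and 119 of those for lower. Their part in the numbers past 4-fold, 8-fold and 16-fold, and so in the longer upper tail, was not separated. A further 997 genes had a point ratio past 2-fold that the interval did not clear, with a median level of 3.27 CPM.

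**Figure D1:**
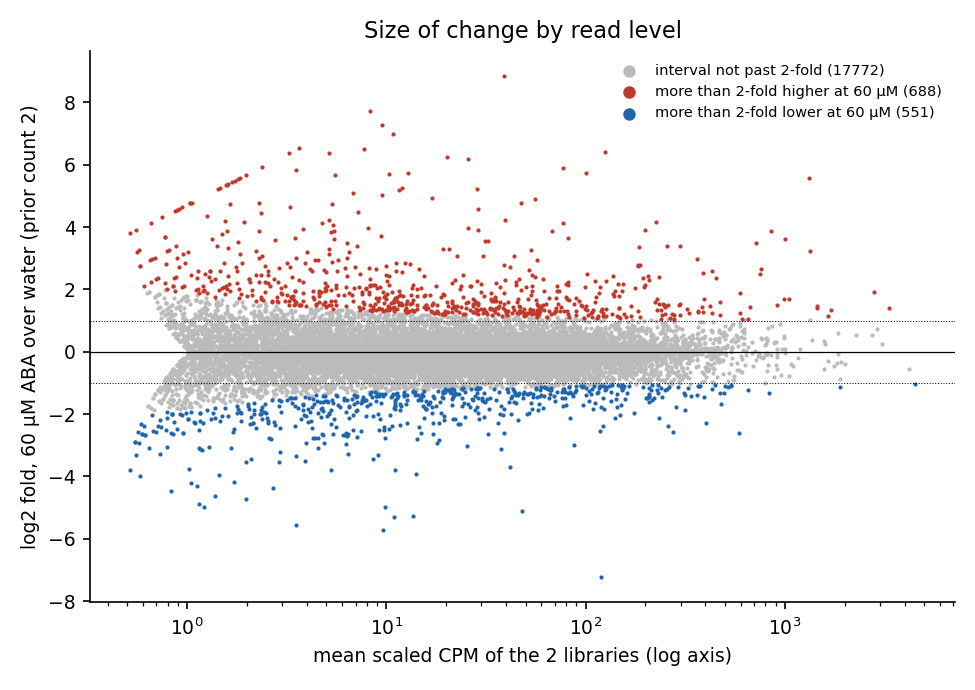
Each point is 1 of the 19011 genes, with the mean scaled CPM of the water and 60 µM libraries on a log x axis and the log2 fold of 60 µM ABA over water (prior count 2) on the y axis; dotted lines mark 2-fold. The 688 red and 551 blue genes passed the 2-fold rule, and the scatter narrows up to about 200 CPM and is wide again at the right-hand end.

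The size of change depended on the read level, and not in 1 direction. Genes were placed in 11 bins by the mean scaled CPM of the 2 libraries. The spread of log2 folds within a bin is given as a robust SD, the interquartile range scaled to that of a normal distribution. It was 0.852 for the 1080 genes from 1 to 2 CPM, 0.382 for the 3149 genes from 10 to 20 CPM and 0.273 for the 1554 genes from 100 to 200 CPM. From there it grew again, to 0.406 for 659 genes from 200 to 500 CPM, 0.555 for 114 genes from 500 to 1000 CPM and 1.075 for the 36 genes of 1000 CPM or more. The narrowest spread was thus in the genes of 100 to 200 CPM. The median size of change followed the same course, from 1.49-fold at 1 to 2 CPM through 1.13-fold at 100 to 200 CPM to 1.46-fold at 1000 CPM or more.

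Counting error fell steadily over the same bins. The SD that counting alone gives was 0.352 at 1 to 2 CPM, 0.036 at 100 to 200 CPM and 0.010 at 1000 CPM or more. The observed spread was 2.42 times the counting SD in the first of these bins, 7.56 times in the second and 104 times in the third. Under 2 CPM the filter of 1 CPM in either library also shaped the spread, and its part was not separated from counting there. In every bin from 2 CPM up the observed spread was at least 3.03 times the counting SD. The larger part of the spread in those bins was therefore something other than counting. Treatment, differences between plants and preparation of the 2 libraries cannot be told apart as its source.

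The bins are set by the same 2 libraries as the folds, so a gene that is much higher in 1 library moves up a bin. With the genes placed by their CPM in the 30 µM library, which is on neither side of the comparison, the robust SD was 0.867 at 1 to 2 CPM, 0.275 at 100 to 200 CPM, 0.714 at 500 to 1000 CPM and 0.673 for the 40 genes of 1000 CPM or more. The narrow middle and the wider upper end were thus also present with that placing, chosen after the data were seen. The 360 genes with a mean under 1 CPM are a special case, since they were kept only because 1 library reached 1 CPM, and their robust SD of 1.687 is partly made by that filter.

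**Figure D2:**
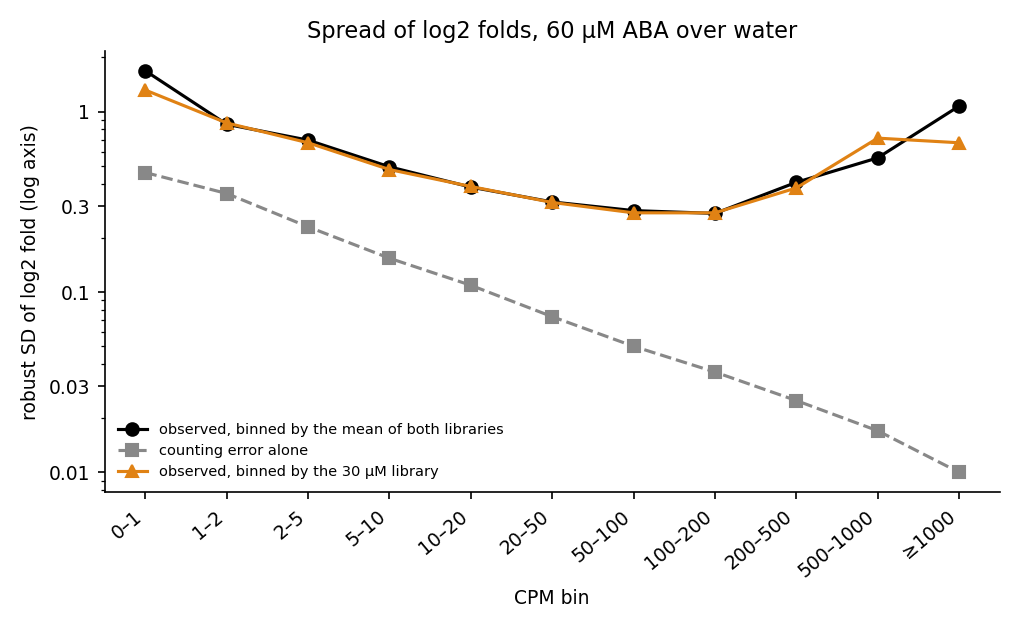
The robust SD of log2 folds (60 µM ABA over water, log y axis) in each CPM bin, observed with genes binned by the mean of both libraries (black) or by the 30 µM library (orange), and as counting error alone gives it (grey). The counting line falls from left to right, while both observed lines are lowest between 50 and 200 CPM (0.273 to 0.283 for the black line) and are higher at either end.

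Calls followed the same shape. They took 9.54% of genes at 1 to 2 CPM (61 higher, 42 lower), 4.17% at 20 to 50 CPM (120 higher, 84 lower) and 6.24% at 100 to 200 CPM (53 higher, 44 lower). They then took 12.6% at 200 to 500 CPM (41 and 42), 15.8% at 500 to 1000 CPM (12 and 6) and 30.6% at 1000 CPM or more (9 and 2). The rule is harder to pass with few reads. At the median water count of the bin from 1 to 2 CPM (31 counts) the smallest ratio that could be called was 3.01, at 10 to 20 CPM (323 counts) it was 2.27, and at 100 to 200 CPM (2948 counts) it was 2.09. The surplus of higher calls at the top depended on the placing. With genes placed by the 30 µM library there were 3 higher and 3 lower calls among those of 1000 CPM or more. From 500 to 1000 CPM there were 8 and 10. Placed by the water library, which favours genes high in water, the numbers were 3 and 4 at 1000 CPM or more. From 500 to 1000 CPM they were then 4 and 16.

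**Figure D3:**
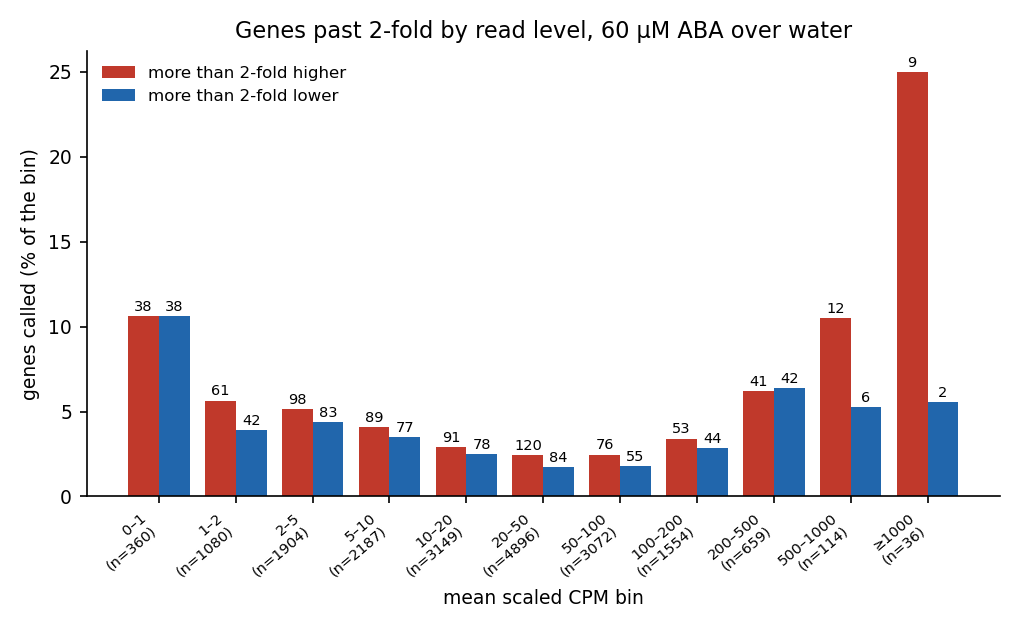
Bars give the percentage of genes in each bin of mean scaled CPM that were called more than 2-fold higher (red) or lower (blue) at 60 µM ABA than in water, with the number of genes above each bar. Shares are lowest from 20 to 100 CPM (1.72% to 2.47%) and reach 9 higher and 2 lower among the 36 genes of 1000 CPM or more.

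The 36 genes of 1000 CPM or more were all protein-coding, and 9 of them were called higher. LOC116194260 had 1223 counts (55.3 CPM) in water and 72755 counts (2565 CPM) at 60 µM, 47.4-fold higher (counting interval 44.8 to 50.2). LOC116195363 had 257 CPM in water and 2389 CPM at 60 µM, a ratio of 9.48 (9.23 to 9.74). These genes had fewer reads in the water library than any other of the 36 and lay in the upper part of the group at 60 µM. Of the 5 features with the most reads at 60 µM, 2 were called, with smaller ratios: LOC116208007 went from 1187 to 4416 CPM (3.80-fold) and LOC116198126 from 1833 to 4784 CPM (2.67-fold).

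The remaining called-higher genes of this level lay close together. LOC116209221, LOC116203545, LOC116214825, LOC116197616 and LOC116215897 had 501 to 1035 CPM in water and 1579 to 2429 CPM at 60 µM, with ratios from 2.23 (LOC116215897) to 3.22 (LOC116209221). LOC116188420, at 902 and 1775 CPM, had a ratio of 2.01 and an interval from 1.98 to 2.04, and so just missed the call. Of the remaining 3 with the most reads at 60 µM, LOC116199965 was at 2188 CPM in water and 3579 CPM at 60 µM (1.67-fold), LOC116205967 at 2842 and 3277 CPM (1.18-fold), and LOC116215619 at 5080 and 3381 CPM (0.680 times). None of these 3 passed the rule.

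Of the genes with a mean of 1000 CPM or more over both libraries, only 2 were called lower, both close to the limit. Genes much lower at 60 µM can fall out of this group, because the 60 µM library counts in the mean. LOC116204098, the feature with the most reads in water, had 135997 counts (6149 CPM) there and 83754 counts (2953 CPM) at 60 µM, 2.04-fold lower (interval 2.02 to 2.06). LOC116212433 had 2614 CPM in water and 1171 CPM at 60 µM and was 2.19-fold lower (2.16 to 2.22). Intervals this narrow reflect the number of reads and not how alike 2 plants of the same treatment would be.

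**Figure D4:**
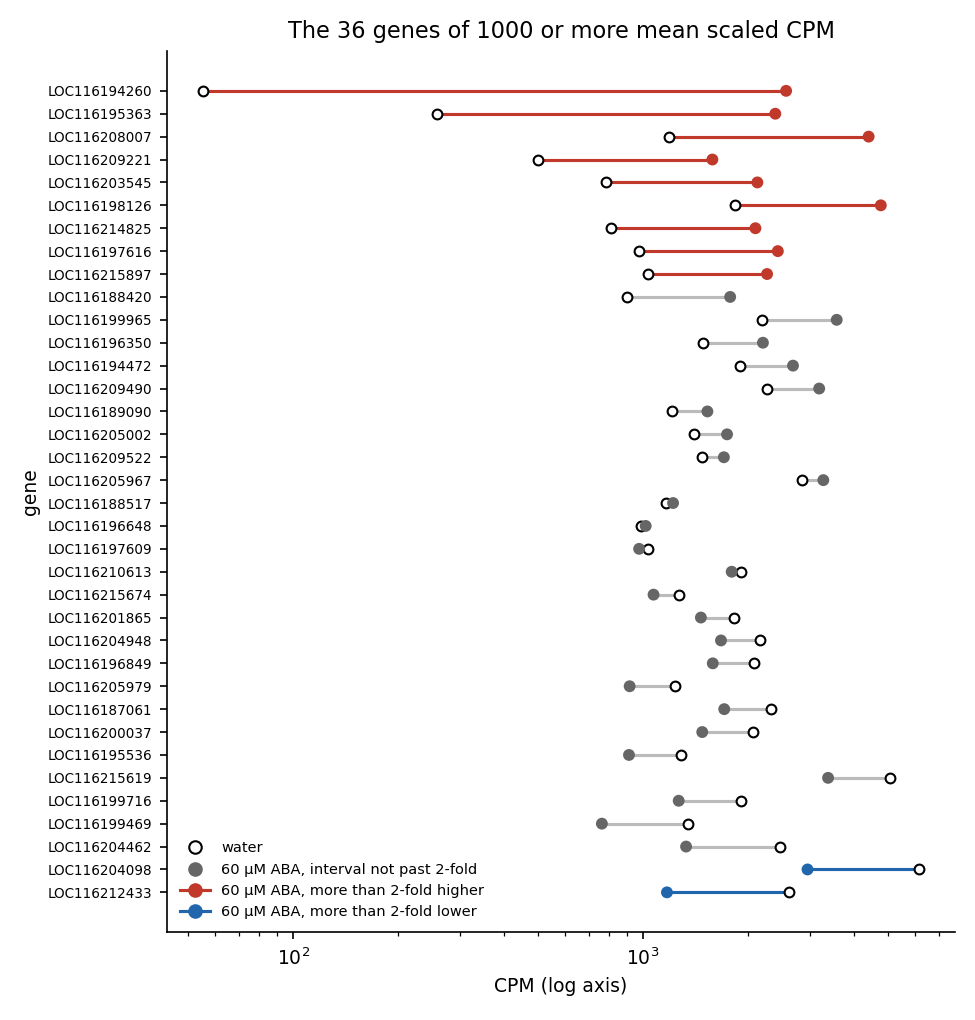
CPM (log x axis) of the 36 genes of 1000 or more mean scaled CPM in water (open circles) and at 60 µM ABA (filled circles), ordered by their ratio. The 9 red genes were more than 2-fold higher, led by LOC116194260 (55.3 to 2565 CPM), and the 2 blue genes more than 2-fold lower.

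Below that level, from 500 to 1000 CPM, 12 genes were called higher and 6 lower. LOC116187230 had 110 CPM in water and 1586 CPM at 60 µM (14.7-fold, interval 14.1 to 15.3), LOC116197583 had 152 and 1827 CPM (12.3-fold) and LOC116204031 had 120 and 1310 CPM (11.1-fold). Each of these 3, which are named as the upper end of this bin after their values were seen, rose by over 1000 CPM. Among the lower genes LOC116194869 stood apart, with 22618 counts (1023 CPM) in water and 4700 counts (166 CPM) at 60 µM, 6.04-fold lower (5.85 to 6.24). The other 5 lower genes of this bin were 2.11-fold (LOC116207718) to 2.51-fold (LOC116215544) lower.

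Over all genes from 100 to under 1000 CPM, the largest ratio belonged to LOC116187191, with 63 counts (2.85 CPM) in water and 6912 counts (244 CPM) at 60 µM, 87.4-fold higher (68.2 to 114). LOC116211169 had 82 and 5573 counts, 54.1-fold higher (43.5 to 68.2), and LOC116206444 had 535 and 12012 counts, 17.9-fold higher (16.4 to 19.5). The lowest ratio belonged to LOC116190357, with 5307 counts (240 CPM) in water and 42 counts (1.48 CPM) at 60 µM, 159-fold lower (117 to 220). LOC116194971 followed LOC116194869 in size, from 475 to 78.9 CPM, 5.90-fold lower (5.64 to 6.18).

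In the middle range of 10 to under 100 CPM, where 504 of 11117 genes (4.53%) were called, the genes with the most extreme ratios had few reads in 1 of the libraries. LOC116190225 had 2 counts in water and 2184 (77.0 CPM) at 60 µM, a ratio of 870 whose interval ran from 241 to 7187 because of the 2 counts. LOC116214651 had 2 and 601 counts, a ratio of 239 (66.0 to 1981), and LOC116202733 had 10 and 1122 counts, a ratio of 89.4 (48.4 to 187). In the other direction LOC116190001 had 479 counts in water and 13 at 60 µM (46.3-fold lower, 26.8 to 87.5), LOC116191974 had 592 and 17 (43.7-fold lower, 27.1 to 75.6), and LOC116190386 had 2083 and 73 (35.8-fold lower, 28.4 to 45.9).

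Under 10 CPM the ratios were as large, with wider intervals. LOC116208707 had 1 count in water and 531 at 60 µM, 423-fold higher (interval 75.6 to 16738). LOC116190160 had 424 counts in water and 8 at 60 µM, 66.5-fold lower (33.5 to 155), and LOC116190360 had 156 and 2, 97.9-fold lower (26.7 to 816). A count of 0 in water was seen in 25 kept genes and a count of 0 at 60 µM in 5. Such genes were kept only through the library where they had reads, so the filter fixed that they were called. Against a floor of 3 counts in the library with none, LOC116207036 (465 counts at 60 µM) was at least 123-fold higher and LOC116189999 (204 counts) at least 54-fold higher, while the largest of the 5 in the other direction, LOC116192440 (54 counts in water), was at least 22-fold lower. More kept genes were at 0 in water than at 60 µM. The 25 had a median of 82 counts at 60 µM, and the 5 a median of 37 in water. The water library was also the shallower one, with 22195 features detected against 22257 at 60 µM. Whether depth played a part in these counts of 0 was not tested.

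Called genes made up a larger share of the 60 µM library than of the water library. The 688 higher genes held 2.60% of the water counts and 8.70% of those at 60 µM, and the 551 lower genes held 5.41% and 2.03%. The direction within each set follows from how it was chosen. In the 30 and 90 µM libraries, which the choice did not use, the higher genes held 3.71% and 6.27%. The lower genes held 4.18% and 4.13% there. Within each called set, few genes carried much of that set's change between water and 60 µM. The 25 with the largest CPM gain accounted for at least 50% of the gain of the higher genes. For the lower genes, 36 accounted for at least 50% of the loss. All called genes together accounted for 33.8% of the summed absolute CPM difference between the libraries, so most of it lay in genes that did not pass 2-fold. The 100 genes with the highest mean level over both libraries took 10.8% of the water library and 12.8% of the 60 µM library.

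By feature class, 668 of the 18346 protein-coding genes kept (3.64%) were higher and 534 (2.91%) lower, close to the shares of 3.62% and 2.90% over all genes. Of the 638 lncRNA genes, which give transcripts that code for no protein, 20 (3.13%) were higher and 17 (2.66%) lower, with a median log2 fold of -0.03. The lncRNA genes had fewer reads (median 3.20 CPM against 24.9 CPM for coding genes). Within the range of 2 to 10 CPM, 5.05% of 317 lncRNA genes and 8.79% of 3766 coding genes were called, and within 10 to 100 CPM 2.91% of 103 and 4.55% of 11010. LOC116209816 (0 counts in water, 97 at 60 µM, at least 25-fold higher) and LOC116199213 (2 and 126 counts, 50.2-fold higher, interval 13.6 to 419) led the higher lncRNA genes. LOC116190263 (46 counts in water and 1 at 60 µM, 57.7-fold lower, interval 9.86 to 2330) and LOC116211362 (121 and 11 counts, 13.8-fold lower, interval 7.45 to 28.4) led the lower ones. Whether the counting used strand is not given, so reads of an antisense partner cannot be told apart.

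No rRNA, snoRNA or snRNA feature was called. These classes held only 11, 13 and 3 kept features, and 6.52% of all genes were called, so the lack of calls does not set them apart. The 11 rRNA features, parts of the ribosome whose near-identical copies can share reads, had a median log2 fold of -0.41, against 0.00 over all genes, and 10 of them had a ratio below 1. LOC116190074, the one with the most reads, had 23123 counts in water and 21796 at 60 µM, 0.751 times its water level (0.737 to 0.765). Together the rRNA features took 0.334% of the water library and 0.243% of the 60 µM library. Their share was 0.228% at 30 µM and 0.146% at 90 µM, so a share below that of water was not particular to 60 µM. Of the 13 snoRNA genes, which guide the modification of rRNA, 6 had a ratio above 1 and 7 below, with a median log2 fold of -0.07. The 3 snRNA genes, parts of the splicing machinery, had ratios of 2.09, 0.398 and 0.466.

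Some called genes were neighbours in the RefSeq gene order of the assembly ASM765513v2, in which a gene has 2 neighbours. Of the 661 higher genes placed on its chromosomes, 96 (14.5%) stood directly beside another higher gene, in 46 runs. Of all 18829 kept genes placed there, 4.70% stood beside a higher gene. Of the 529 lower genes placed, 51 (9.64%) stood beside another lower gene, in 25 runs, and 3.91% of all kept genes did. In 22 cases a higher gene stood directly beside a lower one. The longest runs held 3 genes, 4 of them higher and 1 lower.

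The members of a run could have close or far values. The neighbours LOC116197025, LOC116195091 and LOC116195029 had 2, 22 and 22 counts in water and 429, 330 and 918 at 60 µM, with ratios of 171, 11.9 and 33.2. All 3 were nearly silent in water. The neighbours LOC116214825, LOC116213226 and LOC116213438 had 17928, 1004 and 131 counts in water and 59443, 5370 and 582 at 60 µM, with ratios of 2.64, 4.26 and 3.54. Here the counts differed by over 100-fold and the ratios by less, although the interval of LOC116214825 (2.60 to 2.69) lay below those of the other two. The other runs of higher genes were LOC116198696, LOC116201199 and LOC116198977 (6.46-fold, at least 29-fold and 7.17-fold) and LOC116202374, LOC116205483 and LOC116205024 (6.97, 6.07 and 2.40-fold). The lower run was LOC116202231, LOC116207635 and LOC116202194, which were 5.72, 13.8 and 2.56-fold lower. Neighbouring copies of a gene can share reads, and their part in these runs was not tested.

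The other 2 libraries of the series gave values for the same genes. The 90 µM over 30 µM ratio shares no library with the comparison of 60 µM with water, and by the same 2-fold rule 6.43% of 18708 genes were called in it, 3.26% higher and 3.16% lower. Of the 688 genes higher at 60 µM, 619 were measured there. Of these, 201 (32.5%) were also higher at 90 than at 30 µM, and 28 (4.52%) were lower. Of the 498 lower genes measured there, 60 (12.0%) were lower at 90 than at 30 µM and 10 (2.01%) were higher. The median log2 ratio of 90 over 30 µM was 0.69 for the higher genes and -0.14 for the lower ones, against 0.00 over all genes. The genes higher at 60 µM thus stood further from the background than the lower ones did.

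At each read level, the higher genes were called higher at 90 than at 30 µM more often than all genes were. Under 10 CPM, 26.6% of 222 higher genes were also higher at 90 than at 30 µM, against 3.92% of all genes of that level. From 10 to 100 CPM the share was 35.1% of 282, against 2.49%, and at 100 CPM or more 37.4% of 115, against 4.15%. The share of these higher genes called lower at 90 than at 30 µM was 9.01%, 1.77% and 2.61% at the rising read levels. Among all genes it was 5.41%, 2.30% and 1.36%, so under 10 CPM and at 100 CPM or more this opposite share was also above that of all genes. For the lower genes the share that was lower at 90 than at 30 µM was 30 of 188 under 10 CPM (5.41% of all), 11.1% of 216 from 10 to 100 CPM (2.30% of all) and 6 of 94 (6.38%) at 100 CPM or more (1.36% of all). The median log2 ratio of 90 over 30 µM of these lower genes was -0.44, -0.07 and 0.22 at the rising read levels, against -0.11, 0.01 and 0.07 for all genes, so at 100 CPM or more the lower genes had on balance more reads at 90 than at 30 µM.

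Single genes followed different courses over the 4 libraries. LOC116187191 had 63, 235, 6912 and 5837 counts at 0, 30, 60 and 90 µM, LOC116211169 had 82, 395, 5573 and 6148, and LOC116206444 had 535, 839, 12012 and 11437. These 3, like LOC116194260 (1223, 3052, 72755 and 49386), were high in the libraries at 60 and 90 µM. LOC116190225 (2, 1539, 2184 and 1972 counts) and LOC116207036 (0, 366, 465 and 533) were high in every ABA library. LOC116214651 (2, 4, 601 and 8 counts), LOC116189999 (0, 2, 204 and 3) and LOC116202733 (10, 7, 1122 and 46) were high in the 60 µM library and low in the other 3.

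The lower genes divided likewise. LOC116190160 had 424, 9, 8 and 8 counts and LOC116191974 had 592, 9, 17 and 9, so both were high in the water library alone. LOC116190357, with 5307, 8383, 42 and 3267 counts, and LOC116190360, with 156, 355, 2 and 293, were low at 60 µM alone. LOC116194869 had 22618, 9762, 4700 and 15220 counts and LOC116194971 had 10516, 6530, 2237 and 8810, with the 60 µM library lowest. The 60 µM library was the highest of the 4 for 485 of the 688 higher genes and the lowest for 457 of the 551 lower ones, a pattern that choosing genes on the 60 µM library favours.

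**Figure D5:**
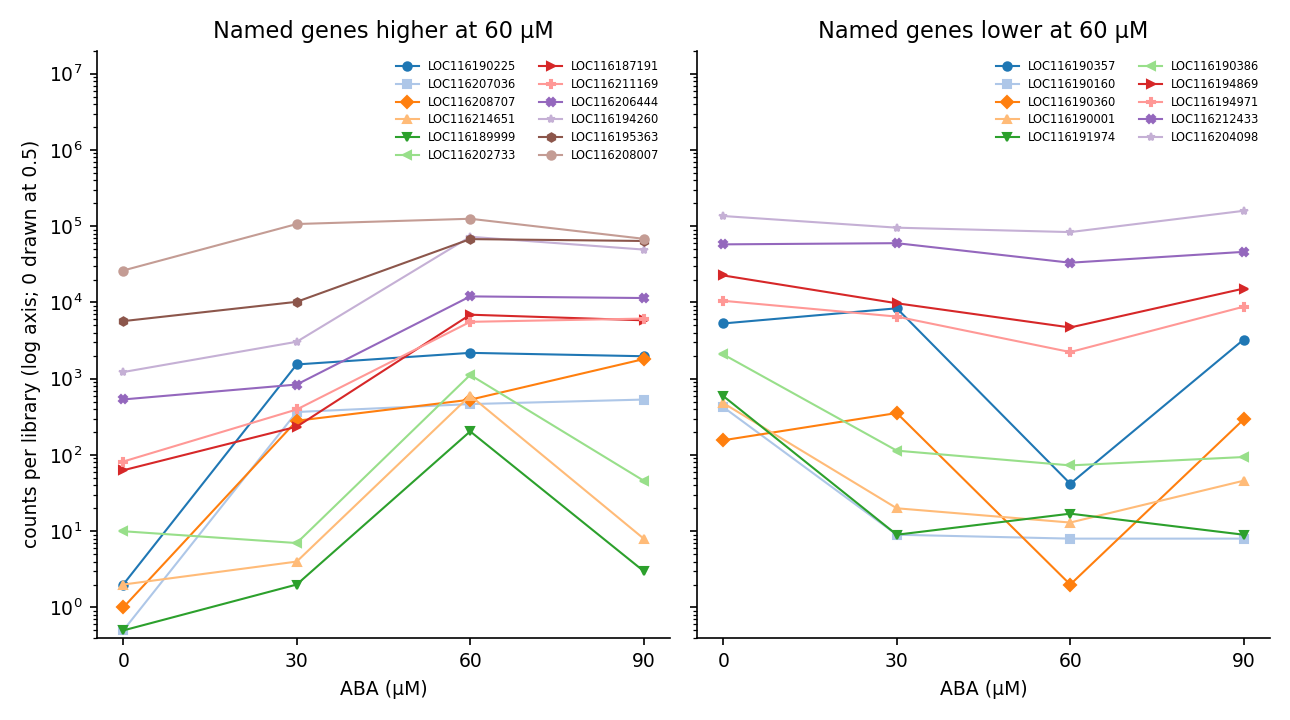
Counts per library (log y axis, 0 drawn at 0.5) at 0, 30, 60 and 90 µM ABA for the named genes with the largest ratios overall and at each read level, higher at 60 µM on the left and lower on the right. Each line joins 4 single libraries; LOC116187191 and LOC116211169 are high at both 60 and 90 µM, and LOC116190357 and LOC116190360 dip at 60 µM alone.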

How the data were processed

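The deposited table holds raw read counts per gene that the authors had not normalized, 1 column per library. FastQC, HISAT2 and featureCounts are named in the submitters' processing notes; versions, genome build, annotation, strand setting and the rule for reads mapping to several places are items not given in the sources used here. No column belonged to another sample (0 such columns). Features with at least 1 CPM (count over column total) in the 60 µM or the water library were kept. TMM factors came from edgeR 4.0.16 on these 2 libraries, the alternative size factors from DESeq2 1.42.0, and intervals from SciPy 1.17.1. With 1 library per dose no test was made. Log2 folds used a prior count of 2, and a floor of 3 counts stood for 0 (0.136 CPM in water, 0.106 CPM at 60 µM). PCR reads without molecular identifiers are not independent molecules, so intervals and floors cover counting error only. The interval was tested on simulated data that held counting error only, so that run could not assess the spread between plants.

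Symbols and feature classes came from RefSeq's gene table of ASM765513v2, which matched 27509 identifiers; coordinates are left out, because the counts name no genome build. The 47 lists defined by product description or protein signature and the 7 promoter motifs could not be filled, because no such descriptions or sequences were at hand. Named genes were, by rule, the 5 largest and 5 smallest log2 folds among called genes, the 3 largest and smallest at each of 3 read levels, the 5 with the most reads at 60 µM, the leading called genes of each feature class, those at the 1 CPM limit and the longest runs of neighbours. Genes from 500 CPM up and those at 0 counts were added after their values were seen. The members and lists were chosen with earlier results of these data known.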

Additional observations from a re-analysis of the deposited data

How the results depend on the processing

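Counts of called genes depended on the rule of size and little on scaling. With the point ratio alone past 2-fold, 1166 genes were higher and 1070 lower. A 4-fold limit gave 189 and 97, and a 1.5-fold limit 1393 and 1466, so that lower genes outnumbered higher ones at 1.5-fold. Scaled by column totals, the counts were 658 and 591, and the median log2 fold of all genes was -0.0286. Counts were within 1.5 times the reported ones with DESeq2 size factors, TMM factors from all 4 libraries, no CPM filter, 1 CPM in both libraries, a mean of at least 5 CPM and a 99% interval. With 1 CPM required in both libraries, 520 genes were higher and 434 lower, of which 6 and 6 were lncRNA genes, and the width of the middle 95% of log2 folds was 2.08 from 1 to 2 CPM and 3.03 from 2 to 5 CPM, because that filter removes genes low in 1 library. Placed by the 30 µM library, a choice added after seeing the data, the width was 4.15 from 1 to 2 CPM and 2.07 from 100 to 200 CPM, while from 500 to 1000 CPM it was 2.79 against 3.93 as reported, and at 1000 CPM or more 2.56 against 4.57. Placed by the water library, also added later, it was 5.52 under 1 CPM, 1.93 from 50 to 100 CPM, 2.08 from 100 to 200 CPM, 2.56 from 200 to 500 CPM, 2.75 from 500 to 1000 CPM and 3.01 at 1000 CPM or more. The upper 2 bins, from 500 CPM up, hold few genes, and their narrower widths lay inside the order-statistic intervals of the reported ones. The other widths given here for both placings lay outside the intervals of their bins. Of the 130 single genes recomputed with a prior count of 0.5 and with column totals, none changed direction, and LOC116208309 and LOC116204580 (log2 folds of 1.04 and 1.01) no longer passed the rule with column totals. The promoter window alternative was not run, since no promoter sequences were at hand. No paired analysis was possible because each dose has 1 library.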

Other observations

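The wide spread among genes with many reads was not the same in every pair of libraries, which overlap in the libraries they use. For genes of 1000 CPM or more, the robust SD of log2 folds was 1.075 for 60 µM over water and 1.215 for 60 over 30 µM, 0.805 for 90 µM over water, 0.981 for 90 over 60 µM and 0.606 for 90 over 30 µM. It was 0.314 for 30 µM over water. Between 36 and 51 genes entered each of these values. For the 2327 genes from 100 to 1000 CPM, the value for 60 µM over water was 0.311, between 0.258 for 30 µM over water and 0.434 for 90 over 30 µM.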
